A study of Solanum lycopersicum with 6 samples.

Results

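The genes described here encode the enzymes that act on carotenoids after lycopene, the red pigment of ripe tomato. They are 10 of the 40229 gene models in the deposited table. They were chosen by identifier for their place in the pathway and not by a rule on their values, but with earlier results of these data known. By role they are 3 lycopene cyclases (LCYE, LCYB1 and CYCB), 2 beta-carotene hydroxylases (BCH1 and BCH2), the 2 enzymes of the xanthophyll cycle (ZEP and VDE), 2 carotenoid cleavage dioxygenases (CCD1A and CCD1B) and NCED1, which opens the route to abscisic acid. Fruit of the dwarf cultivar Micro-Tom was sampled 25 days after anthesis (flower opening), from a line labelled SlLBD40-KO (3 libraries) and from wild type (3 libraries). SlLBD40 is a transcription factor gene of the LATERAL ORGAN BOUNDARIES domain family. The labels do not give the edit, the number of lines or whether fruits were pooled, and the replicates are called biological without naming separate plants, and p-values then reflect only how these libraries vary, which may be technical. The table describes 8 of the 10 genes by their enzyme or, for NCED1, by the mutant name notabilis. The entries of LCYE (Delta) and CYCB (Beta-carotene) name no enzyme, and both carry the Pfam family PF05834 of lycopene cyclases. In the RefSeq gene table for tomato (assembly SLM_r2.1) all 10 were found by symbol, on the chromosome that the identifier names. There LCYE also bears the name Delta, BCH1 and BCH2 are CrtR-b1 and CrtR-b2, CYCB carries the symbol NSY, and CCD1A and CCD1B are neighbours on chromosome 1 with no other listed gene between them.

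Carotenoids are made in plastids. From linear lycopene the pathway forks at cyclization: LCYE together with a beta-cyclase makes alpha-carotene, the precursor of lutein, whereas beta-cyclases alone make beta-carotene. Hydroxylation of the beta rings gives zeaxanthin, which ZEP epoxidizes to violaxanthin and which VDE restores in strong light, a cycle that protects the photosynthetic apparatus of green tissue. Cleavage dioxygenases cut carotenoids into aroma volatiles, and NCED1 cuts epoxidized carotenoids to the precursor of abscisic acid. In ripening tomato the cyclization steps are known to stay low while lycopene builds up.

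Transcript levels are given as TPM (transcript abundance scaled for transcript length and for the library total), so levels can be set side by side between genes. The column totals lay between 987932 and 994646 TPM. TPM keeps no sequencing depth, so depth is unknown and no counting interval is given. Columns are numbered 1 to 3 within a genotype, and "knockout 1" or "wild type 1" means such a column. In 3 wild-type samples the labels name 1 lane and in 2 knockout samples another, with none for the remaining knockout sample, and the prefix of the sample titles also goes with genotype. Genotype therefore cannot be told apart from what lane or prefix marks, which the labels do not explain. The labels give no identifier for SlLBD40. The gene recalled under that name, Solyc02g085910, described as a LOB domain-containing protein, had 0.77, 2.51 and 3.85 TPM in knockout 1 to 3, against 1.57, 5.35 and 1.90 TPM in wild type 1 to 3. The groups overlapped (limma adjusted p = 0.875), as did those of Solyc05g009320, another LOB domain gene (0.61 to 1.51 TPM in the knockout, 0.79 to 3.41 TPM in wild type, limma adjusted p = 0.692). These levels do not serve as a check of the labelled genotypes. Knockout 1 and wild type 1 stood apart in transcripts of seed tissue: 44 seed storage and oleosin genes summed to 4699, 169 and 431 TPM in knockout 1 to 3, against 4657, 75.0 and 62.6 TPM in wild type 1 to 3. Results that rest on these libraries are given with and without them.

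All 10 genes passed the filter of 1 TPM in at least 3 libraries. In VDE, CCD1B and LCYB1 the knockout and wild-type ranges did not overlap, with VDE and CCD1B higher and LCYB1 lower in the knockout. The other 7 overlapped. Nonoverlapping groups were found in 24.4% of the 18368 genes tested, in 8.26% with the knockout higher and in 16.1% with it lower, so 3 of 10 is near the background. The genotypes were set against each other with limma on log2(TPM + 1), with p-values adjusted over all 18368 genes. At an adjusted p under 0.05 it called 0 of the 10, where the background was 0.0926% (17 genes, of which 8 or 0.0436% were higher and 9 or 0.049% lower in the knockout). Taken unadjusted, a p under 0.05 was reached by 2 of the 10, VDE and CCD1B, both higher, where 17.5% of all genes passed in either direction and 6.24% were higher. The median log2 fold change of the 10 was 0.21, against −0.087 over all genes tested, and 6 of the 10 had a higher mean on the log scale against 43.5% of all genes. Without wild type 1 the median of the 10 was −0.027, and without both seed-rich libraries it was 0.00026.

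**Figure D1:**
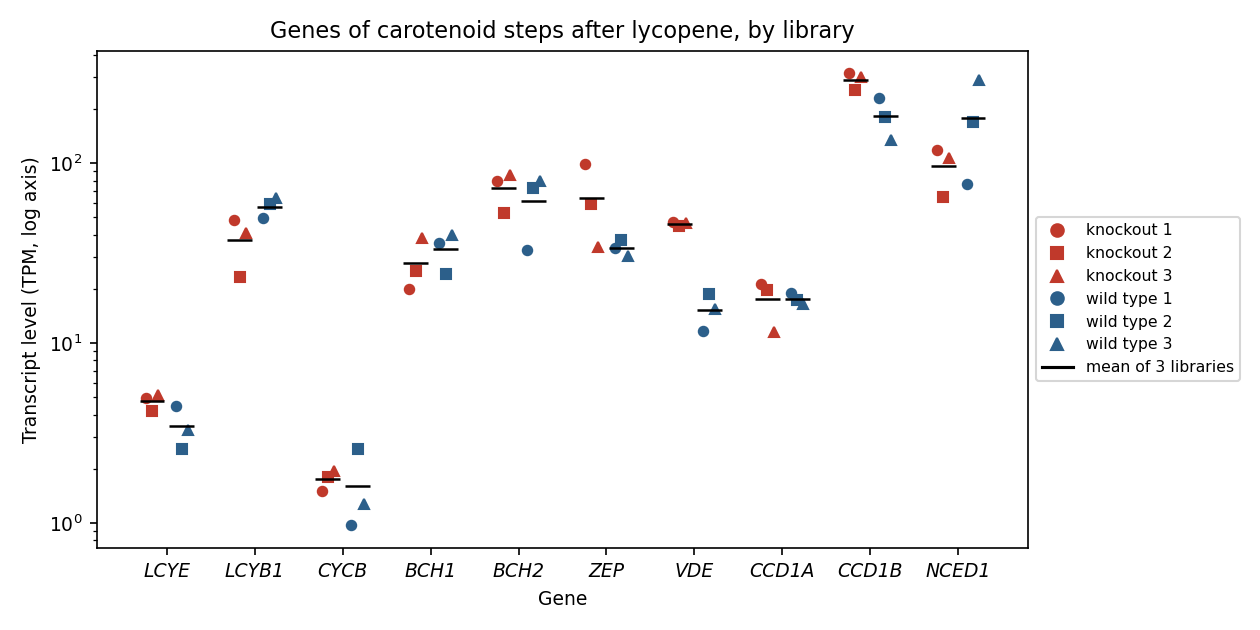
Transcript level of the 10 genes in each library, in TPM on a log axis, with knockout libraries in red to the left and wild-type libraries in blue to the right of each gene; black lines are means of 3 libraries. The 3 VDE points of the knockout lie together between 44.67 and 46.81 TPM, above all wild-type points, while NCED1 spreads from 76.54 to 289.57 TPM in wild type.

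The order of levels was similar in both genotypes at its ends. CCD1B led with a mean of 291 ± 31.0 TPM in the knockout and 182 ± 48.2 TPM in wild type (SD, n = 3 each). CYCB was lowest, with 1.74 ± 0.221 TPM in the knockout and 1.61 ± 0.862 TPM in wild type. In the knockout CCD1B was above the next gene, NCED1, in every library, whereas the ranges of these genes overlapped in wild type. From NCED1 through BCH2, ZEP, VDE, LCYB1 and BCH1 to CCD1A, each neighbour in the knockout order overlapped the next. VDE was the fifth in the knockout and the eighth in wild type, where it lay beside CCD1A with overlapping ranges and above LCYE without overlap. Among all genes tested, the mean level of VDE stood at the 80.0th percentile in the knockout and at the 49.7th in wild type.

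At the cyclization step the most abundant gene stood lower in the knockout. LCYB1 (Solyc04g040190), the beta-cyclase of green tissue, supplied most cyclase transcripts in every library. It had 48.27, 23.18 and 40.69 TPM in knockout 1 to 3, against 49.31, 58.88 and 63.66 TPM in wild type 1 to 3. The groups did not overlap, but knockout 1 came within about 1 TPM of wild type 1. The log2 fold change was −0.66 (SE 0.31, 95% interval −1.39 to 0.08, limma adjusted p = 0.334), and without knockout 2 it was −0.36. LCYE (Solyc12g008980), the epsilon-cyclase at the entry to lutein, was low throughout, at 4.96, 4.17 and 5.12 TPM in knockout 1 to 3 against 4.44, 2.58 and 3.30 TPM in wild type 1 to 3. Wild type 1 lay among the knockout libraries and the other 2 wild-type libraries below them (log2 fold change 0.39, SE 0.30, 95% interval −0.30 to 1.08, limma adjusted p = 0.550), and without wild type 2 the fold change of LCYE was 0.25. CYCB (Solyc06g074240), the beta-cyclase known from chromoplasts, had 1.5, 1.8 and 1.93 TPM in knockout 1 to 3, against 0.97, 2.59 and 1.27 TPM in wild type 1 to 3. Its wild-type values enclosed those of the knockout, and the log2 fold change of 0.12 (SE 0.33, limma adjusted p = 0.898) changed sign without wild type 1, to −0.061, and was 0.37 without wild type 2.

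The balance between the cyclases was read from their shares. LCYE made up 9.06%, 14.3% and 10.7% of the summed TPM of the 3 cyclases in knockout 1 to 3, against 8.11%, 4.03% and 4.84% in wild type 1 to 3. Every knockout library was above every wild-type library, by less than 1 percentage point between knockout 1 and wild type 1, which are also the libraries rich in seed transcripts. The log2 ratio of LCYE to LCYB1 plus CYCB was taken with 1 TPM added to each side, which matters at the low level of LCYE. It averaged −2.75 ± 0.387 in the knockout and −3.77 ± 0.468 in wild type (SD, n = 3 each). The difference was 1.02, and 1.45 without both seed-rich libraries. With 0.1 TPM added instead of 1 TPM, over all libraries, the difference was 1.12. A two-sided exact permutation test gave p = 0.1, the smallest that 3 against 3 libraries allow, and 0.2 after Benjamini-Hochberg adjustment over the 2 ratios examined.

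Both hydroxylases overlapped between the genotypes. BCH1 (Solyc06g036260) had 20.05, 25.13 and 38.41 TPM in knockout 1 to 3, against 36.03, 24.23 and 40.06 TPM in wild type 1 to 3 (log2 fold change −0.27, SE 0.33, 95% interval −1.04 to 0.49, limma adjusted p = 0.727). The fold change of BCH1 was −0.0043 without both seed-rich libraries, −0.072 with knockout 1 alone left out and −0.52 with knockout 3 alone left out. BCH2 (Solyc03g007960) had 79.24, 52.98 and 85.43 TPM in knockout 1 to 3, against 32.85, 72.68 and 79.61 TPM in wild type 1 to 3 (log2 fold change 0.30, SE 0.39, 95% interval −0.61 to 1.21, limma adjusted p = 0.750). The lower wild-type mean of BCH2 rested on wild type 1: without it the log2 fold change was −0.097, without wild type 3 it was 0.53, and without both seed-rich libraries −0.17. BCH2 was the more abundant of the pair in all libraries except wild type 1, where BCH1 made up 52.3% of their sum. In the other libraries BCH1 took 20.2%, 32.2% and 31.0% in knockout 1 to 3, against 25.0% and 33.5% in wild type 2 and 3. Their summed level was 100.4 ± 22.9 TPM in the knockout and 95.2 ± 25.4 TPM in wild type (SD, n = 3 each).

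VDE (Solyc04g050930), the violaxanthin de-epoxidase of the xanthophyll cycle, showed the widest separation of the 10. It had 46.81, 44.67 and 46.15 TPM in knockout 1 to 3, against 11.68, 18.82 and 15.45 TPM in wild type 1 to 3. The lowest knockout library was more than 2 times the highest wild-type library, and the mean in the knockout was 2.995 times that in wild type. The knockout libraries differed little from each other (SD 2.39% of the mean, against 23.3% in wild type), while the knockout SDs of the other 9 genes ran from 10.7% to 50.9% of their means. The log2 fold change of 1.55 (SE 0.25, 95% interval 0.96 to 2.13) did not pass over all genes (limma adjusted p = 0.0806, unadjusted p = 0.000406), although it ranked at place 88 of 18368. Under the 12 alternatives the fold change stayed between 1.36 and 1.70 and the adjusted p between 0.0726 and 0.452, the highest without both seed-rich libraries.

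**Figure D2:**
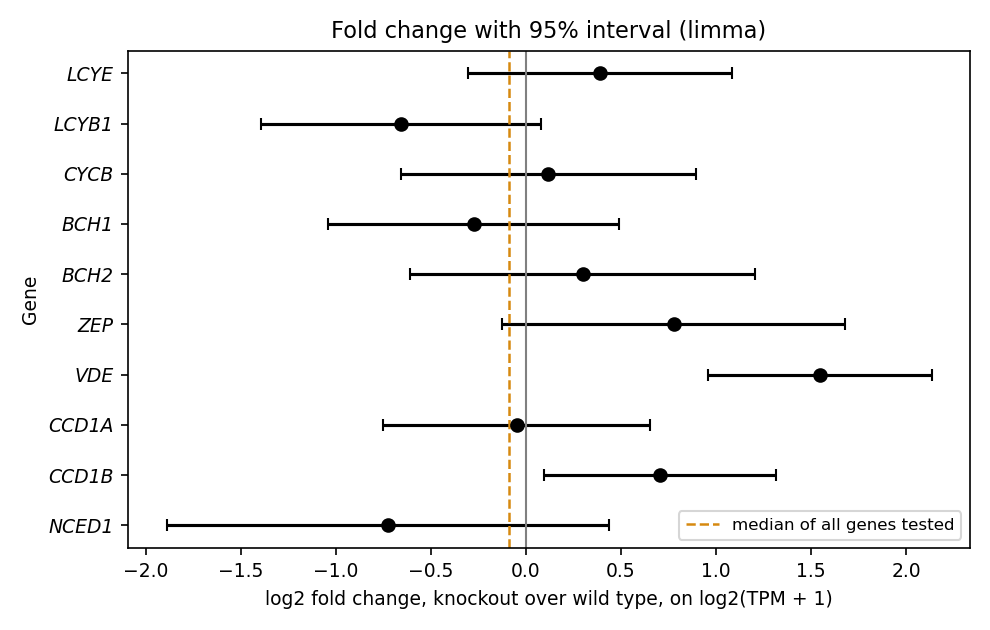
log2 fold change of knockout over wild type for the 10 genes on the log2(TPM + 1) scale, with 95% intervals from limma; the dashed line is the median of all genes tested at −0.087. The intervals of VDE (0.96 to 2.13) and CCD1B (0.096 to 1.32) lie above 0, and the other 8 include it; none passed the adjusted threshold.

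ZEP (Solyc02g090890), which works against VDE in the cycle, varied more within the knockout. It had 98.66, 59.37 and 34.01 TPM in knockout 1 to 3, against 33.81, 37.23 and 30.45 TPM in wild type 1 to 3. Knockout 1 and 2 lay above all wild-type libraries and knockout 3 among them (log2 fold change 0.78, SE 0.38, 95% interval −0.13 to 1.68, limma adjusted p = 0.351). The SD was 32.6 TPM in the knockout and 3.39 TPM in wild type. Without knockout 1 the log2 fold change was 0.41 and without knockout 3 it was 1.16. VDE made up 32.2%, 42.9% and 57.6% of the sum of VDE and ZEP in knockout 1 to 3, against 25.7%, 33.6% and 33.7% in wild type 1 to 3. Knockout 3 was the 1 library with more VDE than ZEP, and knockout 1 lay within the wild-type range. The log2 ratio of VDE to ZEP, with 1 TPM added to each, averaged −0.34 ± 0.746 in the knockout and −1.11 ± 0.298 in wild type (SD, n = 3 each). The difference was 0.77 (two-sided exact permutation p = 0.3, also 0.3 after Benjamini-Hochberg adjustment).

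**Figure D3:**
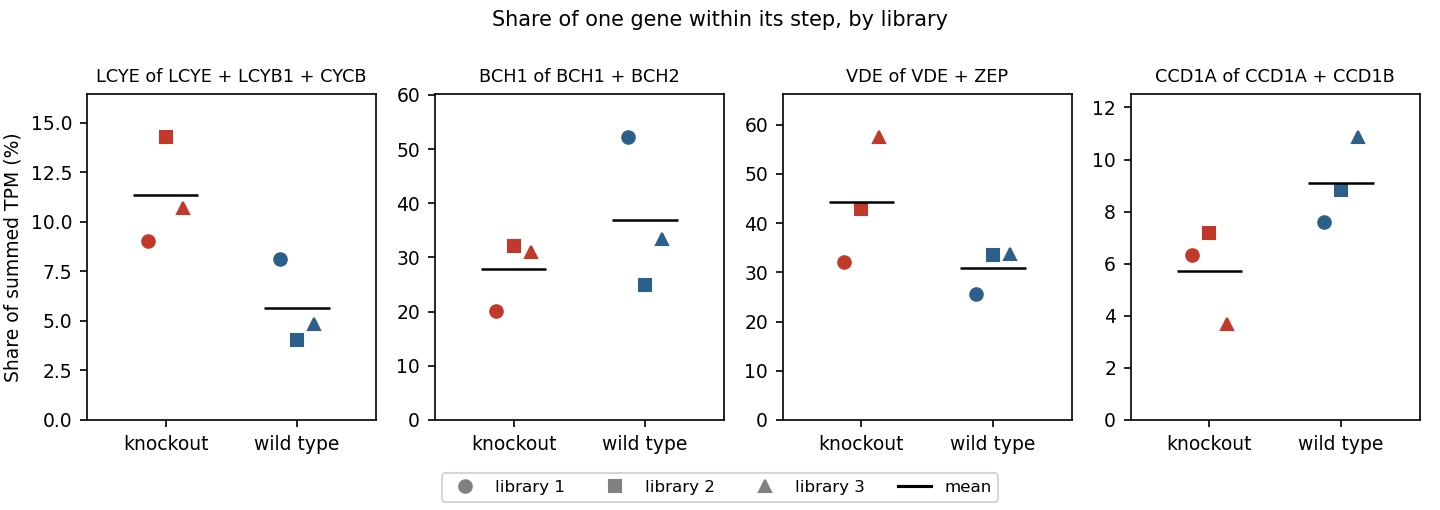
Share of 1 gene in the summed TPM of its step, in percent, for each library; knockout on the left and wild type on the right of each panel, with means as black lines. The LCYE share is higher in all 3 knockout libraries (9.06% to 14.3%) than in wild type (4.03% to 8.11%) and the CCD1A share is lower (3.68% to 7.18%, against 7.61% to 10.9%); the BCH1 and VDE shares overlap.

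The cleavage dioxygenases of the CCD1 pair, cytosolic enzymes that yield volatiles such as beta-ionone, differed from each other in level by an order of magnitude. CCD1B (Solyc01g087260) had 315.41, 256.16 and 301.71 TPM in knockout 1 to 3, against 230.84, 179.67 and 134.61 TPM in wild type 1 to 3. The groups did not overlap, with a mean ratio of 1.602 (log2 fold change 0.71, SE 0.26, 95% interval 0.096 to 1.32, limma adjusted p = 0.226, unadjusted p = 0.0290). CCD1A (Solyc01g087250) had 21.31, 19.81 and 11.52 TPM in knockout 1 to 3, against 19.02, 17.38 and 16.43 TPM in wild type 1 to 3. Its knockout values enclosed those of wild type (log2 fold change −0.047, SE 0.30, limma adjusted p = 0.959), and its sign turned under median-ratio scaling (0.055) and without knockout 3 (0.21) or wild type 1 (0.0065). CCD1A therefore took 6.33%, 7.18% and 3.68% of the pair in knockout 1 to 3, against 7.61%, 8.82% and 10.9% in wild type 1 to 3. The genes are tandem paralogs, and how reads common to both were assigned is not given in the sources used here, so the split between them is uncertain. Their sum was 337, 276 and 313 TPM in knockout 1 to 3, against 249.9, 197 and 151 TPM in wild type 1 to 3.

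NCED1 (Solyc07g056570), the dioxygenase that commits carotenoids to abscisic acid and that is lost in the notabilis mutant, had 118.36, 64.59 and 106.95 TPM in knockout 1 to 3, against 76.54, 168.77 and 289.57 TPM in wild type 1 to 3. Wild type 1 lay within the knockout range and wild type 2 and 3 above it. The mean ratio was 0.542 (log2 fold change −0.73, SE 0.49, 95% interval −1.89 to 0.44, limma adjusted p = 0.503). Without wild type 3 the log2 fold change was −0.28, without knockout 2 it was −0.46, without wild type 1 it was −1.23, and without both seed-rich libraries −1.40. Over the 6 libraries NCED1 had the widest range of the 10 genes, 4.48-fold from knockout 2 to wild type 3.

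Genes of abscisic acid synthesis after NCED1 and of the turnover of the hormone were read as a single list. Limma gave 0 of 6 tested at an adjusted p under 0.05 and 1 at an unadjusted p under 0.05, lower in the knockout. In all genes tested 17.5% passed that threshold in either direction and 11.3% were lower, so 1 of 6 is near the background. This was CYP707A1, described as an abscisic acid hydroxylase, an enzyme that inactivates the hormone. It had 0.86, 3.29 and 1.18 TPM in knockout 1 to 3, against 6.97, 5.2 and 13.85 TPM in wild type 1 to 3 (log2 fold change −1.80, SE 0.47, limma adjusted p = 0.134). The groups did not overlap, as in 16.1% of all genes with the knockout lower. SIT, the sitiens gene needed for the last oxidation to abscisic acid, overlapped between genotypes, from 1.59 to 4.34 TPM in the knockout and from 2.67 to 6.48 TPM in wild type (limma adjusted p = 0.726). A cytochrome P450 gene, Solyc08g005610, ranged from 4.02 to 15.07 TPM in the knockout and from 0.47 to 8.85 TPM in wild type (limma adjusted p = 0.625). The list's median log2 fold change was −0.19, with 2 genes higher and 4 lower. Because the list joins synthesis and turnover, this median describes neither of them alone. A further gene of the 7 listed, Solyc01g108210, was below the filter.

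Within a list of other genes acting after lycopene, all but CYP97C11 were below the filter or overlapped between genotypes. Of 11 listed, 6 were tested, 3 with a higher and 3 with a lower mean and a median log2 fold change of −0.096, and limma gave 0 at an adjusted and 0 at an unadjusted p under 0.05. CYP97C11, a cytochrome P450 hydroxylase of the lutein branch, had 10.90, 7.46 and 5.94 TPM in knockout 1 to 3, against 4.12, 4.38 and 5.14 TPM in wild type 1 to 3 (log2 fold change 0.68, SE 0.31, limma adjusted p = 0.315). Its groups did not overlap, as in 8.26% of all genes with the knockout higher. NCED2, a paralog of NCED1, ranged from 5.76 to 14.52 TPM in the knockout and from 6.49 to 32.31 TPM in wild type (limma adjusted p = 0.564). Solyc01g098110, described as an acyltransferase-like protein, ranged from 2.14 to 7.49 TPM in the knockout and from 1.26 to 3.10 TPM in wild type (limma adjusted p = 0.705). CCD7 and CCD8, which serve strigolactone synthesis, were at or below 0.03 TPM in every library.

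The steps that lead to lycopene gave no gene past the adjusted threshold. Of 8 listed genes 7 were tested, and 6 had a higher mean in the knockout, or 85.7% against 43.5% of all genes, with a median log2 fold change of 0.69 against 0.21 for the 10 genes after lycopene. The difference between these medians was not tested. Limma gave 0 of the 7 at an adjusted p under 0.05 and 2 at an unadjusted p under 0.05, both higher, where 6.24% of all genes were. PDS, the phytoene desaturase, had 66.46, 48.02 and 76.82 TPM in knockout 1 to 3, against 35.35, 32.39 and 42.18 TPM in wild type 1 to 3 (log2 fold change 0.77, SE 0.26, limma adjusted p = 0.194). CRTISO, the carotenoid isomerase that finishes lycopene, had 55.00, 33.94 and 54.65 TPM in knockout 1 to 3, against 20.52, 26.43 and 31.57 TPM in wild type 1 to 3 (log2 fold change 0.83, SE 0.29, limma adjusted p = 0.208). PSY2, a phytoene synthase, ranged from 21.42 to 31.36 TPM in the knockout and from 10.27 to 18.89 TPM in wild type (limma adjusted p = 0.336). These 3 were named for the lowest p of the list. Nonoverlapping groups with the knockout higher were found in 3 of the 7 tested, the same 3, where 8.26% of all genes had this pattern. The other tested genes overlapped, and Z-ISO had a lower mean in the knockout (log2 fold change −0.90). Without knockout 3 the list's median was 0.31, and without both seed-rich libraries it was 0.56. With both left out, the log2 fold change was 0.70 for PDS and 0.56 for CRTISO. That of PSY2 was 0.235, against 0.66 over all libraries.

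**Figure D4:**
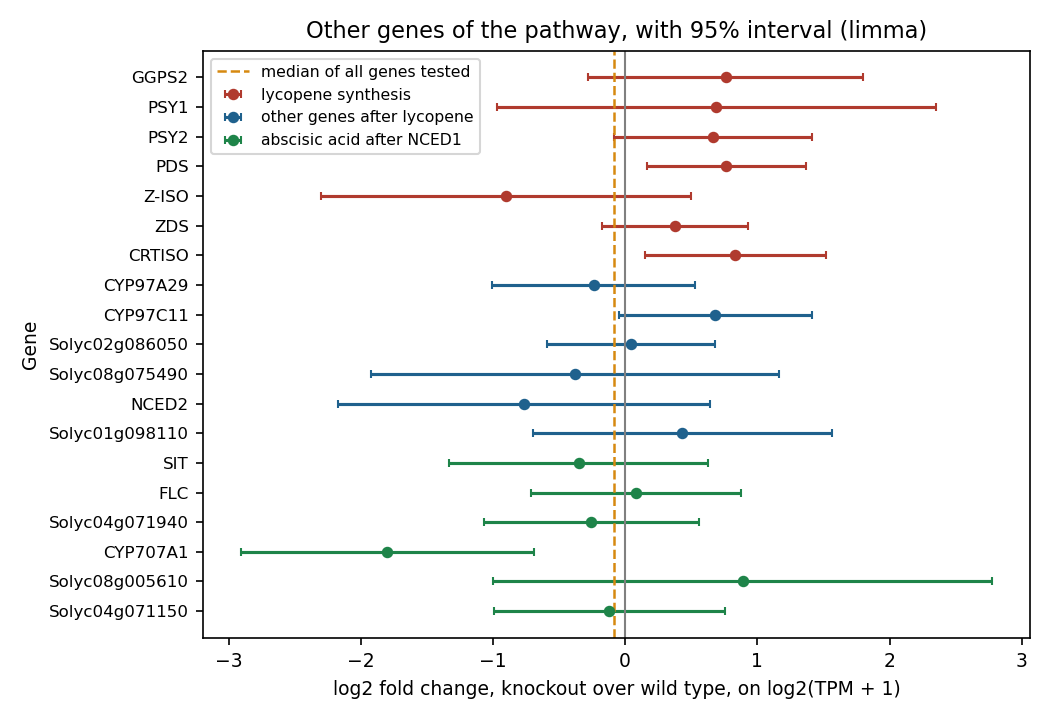
log2 fold change of knockout over wild type for the other tested genes of the pathway on the log2(TPM + 1) scale, with 95% intervals from limma, coloured by list; the dashed line is the median of all genes tested at −0.087. The intervals of PDS and CRTISO lie above 0 and that of CYP707A1 below 0; none of these genes passed the adjusted threshold.

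Marker lists of green, ripening and seed tissue were read in the same libraries. In bulk fruit, fewer cells of a type and less RNA per cell cannot be told apart. The summed level of 185 chloroplast genes (chlorophyll-binding proteins and photosystem subunits) was 9826, 7891 and 11670 TPM in knockout 1 to 3, against 7916, 4007 and 3599 TPM in wild type 1 to 3. Of these, 69 were tested, and 55 had a higher mean in the knockout, or 79.7% against 43.5% of all genes. Limma gave 0 of the 69 at an adjusted p under 0.05 and 27 at an unadjusted p under 0.05, all higher, where 6.24% of all genes were. The groups did not overlap in 27, with the knockout higher in each, where 8.26% of all genes had this pattern. The 3 with the lowest p were the chlorophyll-binding gene Solyc12g009200 (9.88 to 14.55 TPM in the knockout, 0.71 to 2.19 TPM in wild type) and the photosystem genes Solyc10g077120 (178.29 to 220.45 TPM and 62.36 to 84.39 TPM) and Solyc11g050770, which was listed at 2.02 to 2.35 TPM in the knockout and at 0 throughout wild type. Solyc11g050770 passed the filter only through the knockout, so its direction and lack of overlap were fixed by the filter. It is included in both counts of 27, and its p carries no weight. VDE was lowest in wild type 1, the wild-type library with the highest chloroplast sum, at 7916 TPM just above knockout 2 at 7891 TPM. That library was also rich in seed transcripts. The part of chloroplast content in the VDE difference was not tested.

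In a list of ripening regulators and ripening or ethylene marker genes, the 3 with the lowest p were uneven among the knockout libraries. NOR, a NAC factor, had 80.39, 54.04 and 402.46 TPM in knockout 1 to 3, against 3.29, 28.86 and 28.95 TPM in wild type 1 to 3 (limma adjusted p = 0.190). RIN, a MADS-box factor, had 27.27, 20.85 and 112.70 TPM in knockout 1 to 3, against 1.53, 19.71 and 8.14 TPM in wild type 1 to 3 (limma adjusted p = 0.228). E4, an ethylene-induced gene, had 69.92, 27.94 and 565.55 TPM in knockout 1 to 3, against 312.65, 454.69 and 386.17 TPM in wild type 1 to 3 (limma adjusted p = 0.379). Of the 9 listed, 7 were tested and 6 had a higher mean in the knockout, or 85.7% against 43.5% of all genes. Limma gave 0 of the 7 at an adjusted p under 0.05 and 2 at an unadjusted p under 0.05, both higher, where 6.24% of all genes were. Knockout 3 was highest in these 3 genes. VDE spanned only 44.67 to 46.81 TPM over the knockout libraries, so its order among them carries no information. The part of ripening stage in the results was not tested.

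Seed transcripts were highest in 1 library of each genotype, and outside those libraries they summed to 169 and 431 TPM in knockout 2 and 3, against 75.0 and 62.6 TPM in wild type 2 and 3. Of the 431 TPM in knockout 3, 370.46 TPM came from 1 oleosin gene, Solyc06g060840. The mean log2(TPM + 1) of the tested seed genes was 2.99 and 1.54 in knockout 2 and 3. In wild type 2 and 3 this mean was 1.21 and 1.10. Of the 44 seed genes 16 were tested. A higher mean in the knockout was seen in 12 of them, or 75.0% against 43.5% of all genes, with a median log2 fold change of 0.61, and limma gave 0 at an adjusted and 0 at an unadjusted p under 0.05. The part of seed content in the results was not tested. The 3 seed genes with the lowest p were the oleosin genes Solyc06g060840 (33.34 to 370.46 TPM in the knockout, 1.97 to 126.79 TPM in wild type) and Solyc08g066040 (0.91 to 4.17 TPM and 0 to 2.05 TPM), and Solyc11g073200 (21.50 to 26.00 TPM and 23.72 to 34.07 TPM). Between 19 and 26 of the 44 were listed at 0 in a library. Wild type 1 was the lowest library for VDE, BCH2 and CYCB, whereas knockout 1 was the highest for ZEP, VDE and both CCD1 genes. Without both seed-rich libraries the log2 fold change was 1.36 for VDE (limma adjusted p = 0.452), 0.83 for CCD1B (limma adjusted p = 0.550) and 0.52 for LCYE (limma adjusted p = 0.754), and −0.97 for LCYB1 (limma adjusted p = 0.568) and −1.40 for NCED1 (limma adjusted p = 0.489).

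**Figure D5:**
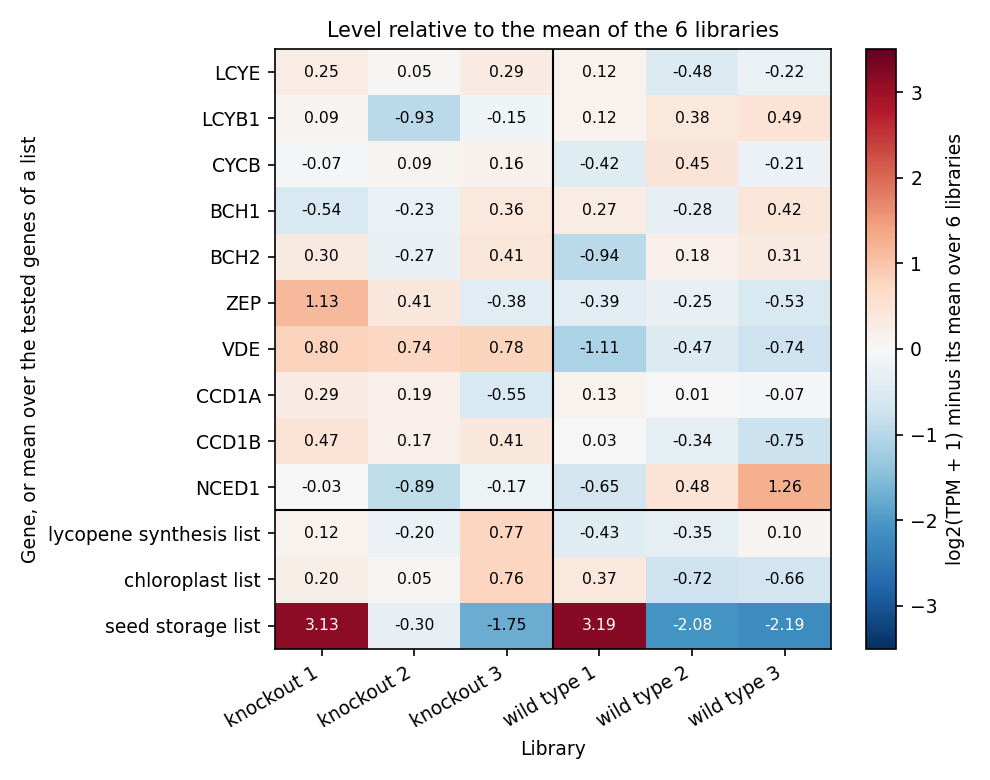
log2(TPM + 1) of each of the 10 genes, and the mean over the tested genes of 3 lists, minus its own mean over the 6 libraries; red is above and blue below that mean, with knockout libraries left of the line and wild-type libraries right of it. VDE is between 0.74 and 0.80 in the knockout and between −1.11 and −0.47 in wild type, whereas the seed storage list is high in knockout 1 (3.13) and wild type 1 (3.19).

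The profiles of single genes over the 6 libraries were compared by the root-mean-square difference of mean-centred log2(TPM + 1) values, as a description. Among 13105 genes with a mean of at least 5 TPM and a known description, the 3 nearest to VDE were an F-box protein PP2-A15 gene (Solyc10g083730, difference 0.104), the cyclin gene cyclinU1_1 (Solyc07g052610, 0.112) and a DUF760 domain gene (Solyc08g076090, 0.114), where the median gene differed by 0.933. The F-box gene had 84.91, 84.16 and 84.92 TPM in knockout 1 to 3, against 22.51, 33.05 and 23.89 TPM in wild type 1 to 3. The 3 nearest to CCD1B were a peptidylprolyl isomerase gene (Solyc04g015040, 0.0797), an NAD(P)-binding Rossmann-fold gene (Solyc02g070770, 0.0833) and a tetratricopeptide repeat gene (Solyc05g013480, 0.0896), where the median gene differed by 0.657. Among the 10 genes the closest pair was LCYE and CCD1B (0.255) and the most distant VDE and NCED1 (1.25).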

How the data were processed

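The authors deposited 1 table of gene values. Its header names no unit, and each column sums to just under 1000000, so the deposited values were treated as TPM. Per the submitters' processing notes, TopHat2, HISAT2, StringTie and Cufflinks were used; roles and versions are not named. The genome build and the release of the gene models are not stated in these sources. Columns name the genotype but carry other numbers than the sample titles, so each was assigned to a genotype only.

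The filter kept genes reaching 1 TPM in 3 or more of the 6 libraries. All of them were fitted together in limma 3.58.1 (R 4.3.3) as log2(TPM + 1) values, allowing the variance to follow the mean, with Benjamini-Hochberg adjustment and a threshold of 0.05; fold changes on this scale understate changes of low genes. The fit was tested on simulated data. Named genes were the 10 members, the 3 lowest p-values of each list, and the 3 nearest profiles of the 2 members with the lowest p. Identifiers in the lists were recalled from memory. Where the table's description did not name the gene, the identifier is used, except for NOR (Solyc10g006880), E4 (Solyc03g111720) and CYP707A1 (Solyc04g078900). Their descriptions give only a NAC domain protein, a peptide methionine sulfoxide reductase and an abscisic acid hydroxylase, so these symbols are recalled too. Members and lists were chosen with earlier results of these data known. Alternatives were median-ratio scaling, no filter, limma's robust option, a pseudocount of 0.1, a filter of 5 TPM, leaving out each library, and leaving out both seed-rich libraries. Python 3.11.15 with matplotlib 3.10.9 made the figures.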

Additional observations from a re-analysis of the deposited data

How the results depend on the processing

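No paired analysis was possible because the columns carry no replicate number from the labels that pairs the genotypes. Of 118 values of the 10 genes recomputed under 12 alternatives, 112 kept their sign, and 7 genes kept it throughout. The number of the 10 called by limma was 0 in every alternative. LCYE and CYCB gave no value with the filter of 5 TPM. The exceptions in sign were CCD1A under median-ratio scaling (0.055), BCH2 without both seed-rich libraries (−0.17), and values with a single library left out. With a single library left out, log2 fold changes ranged from −0.20 to 0.21 for CCD1A, −0.061 to 0.37 for CYCB and −0.097 to 0.53 for BCH2. Of 212 values of the named list genes, 2 changed sign, both with a single library left out. Ranges there were −0.030 to 0.69 for Solyc01g098110 and −0.0054 to 1.37 for Solyc08g005610. The cause of these sign changes was not tested. Over all genes, the 17 calls became 27 under median-ratio scaling, 0 with no filter (3699 at an unadjusted p under 0.05), 0 without both seed-rich libraries (1626) and 0 to 23 with a single library left out. Differences in the log2 ratio ranged from 0.38 to 1.13 for VDE to ZEP and from 0.80 to 1.28 for the cyclases with a single library left out. Depth is unknown, so what it limits could not be assessed.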

Other observations

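Beyond the 10 genes and the lists, 16 further genes carried a description naming a carotenoid step, and 8 of them were tested. These were gathered after their values were seen, so they carry no weight as a list. Solyc03g034240, described as Abscisic acid (Aba)-deficient 4, a name given in Arabidopsis to a protein needed for neoxanthin synthesis, had 18.31, 8.59 and 2.05 TPM in knockout 1 to 3, against 0.09, 0.20 and 0.09 TPM in wild type 1 to 3 (limma adjusted p = 0.102). It passed the filter only through the knockout, so its direction and lack of overlap were fixed by the filter and its p carries no weight. Another gene of that description, Solyc02g063170, had 3.04, 3.05 and 1.39 TPM in knockout 1 to 3, against 8.28, 5.40 and 8.54 TPM in wild type 1 to 3 (limma adjusted p = 0.141). The other gene, Solyc02g086050, overlapped between genotypes, from 8.89 to 13.92 TPM in the knockout and from 10.85 to 11.47 TPM in wild type (limma adjusted p = 0.955).

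A gene described as the beta-carotene isomerase D27 (Solyc08g008630), an enzyme of strigolactone synthesis, had 64.83, 52.68 and 63.48 TPM in knockout 1 to 3, against 46.46, 25.63 and 34.06 TPM in wild type 1 to 3 (limma adjusted p = 0.206), while CCD7 and CCD8, which act after it, were at or near 0. A violaxanthin de-epoxidase-related gene (Solyc04g051610) had 12.83, 9.87 and 6.06 TPM in knockout 1 to 3, against 6.19, 6.59 and 5.59 TPM in wild type 1 to 3 (limma adjusted p = 0.467), so it overlapped where VDE did not. Solyc01g102950, described as a lycopene beta/epsilon cyclase protein, had 1.66 to 6.03 TPM in the knockout and 0.84 to 2.79 TPM in wild type. Solyc01g009080, described as a zeaxanthin epoxidase, had 13.7 to 20.37 TPM in the knockout and 7.02 to 23.71 TPM in wild type. Both overlapped between genotypes, and neither was counted in the cyclase shares or in the VDE to ZEP ratio.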
